A study of Rattus norvegicus with 23 samples.

Results

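Healthy skeletal muscle was compared with healthy vein, the tissues from which a muscle-in-vein graft is built, across every gene row of a deposited RNA-seq count table. All 32545 rows of the table belong to the comparison, and 15954 of them passed the filter on low counts and were tested. The muscle group holds 3 libraries of healthy adductor muscle and the vein group holds 3 libraries of healthy epigastric vein, out of 23 libraries in the series. Both groups are labelled WT, with no treatment and day 0, from Rattus norvegicus. The series design gives the animals whose nerves were repaired as adult females and says nothing of the age or sex behind the muscle and vein. The other libraries are 5 of healthy median nerve (WT, no treatment, day 0) and 12 of median nerves collected after a cut and repair. These are 3 labelled MIV and 3 labelled EV at each of days 3 and 7, all WT. Their treatment labels read repair after cut injury with MIV for the former and without it for the latter. Library totals ran from 13369080 to 17314324 counts in muscle and from 12650952 to 17209441 in vein. Nothing in the labels says that replicates are separate animals; p-values therefore cover only how far these libraries scatter, and that scatter may be technical.

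Skeletal muscle consists mainly of fibres, long multinucleate cells packed with contractile filaments, mitochondria and calcium stores, with capillaries, connective tissue, nerve endings and stem cells between them. A vein wall is a layered tube: an endothelial lining, a thin coat of smooth muscle and an outer sheath of fibroblasts and matrix, often with some fat attached. In a muscle-in-vein graft the vein serves as the tube that bridges the gap in the nerve, and the muscle inside keeps it open and offers its basal laminae to the growing axons. In bulk RNA a higher level in 1 tissue can come from more cells of a type or from more RNA per cell, and these cannot be told apart. The rows carry Ensembl rat identifiers, none of which matched the reference gene table used here (0 of 32545). Genes are therefore described as groups set by level and direction, with 2 identifiers in each direction, and the tissue labels were not checked against marker genes. How reads shared by paralogs were assigned is not given in the sources used here, so counts of genes with a near-identical copy are uncertain.

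The first difference between the tissues was how few genes filled the muscle libraries. The single most abundant gene of each library took 7.29%, 8.72% and 7.83% of all counts in muscle replicates 1, 2 and 3. In vein it took 1.18%, 1.35% and 1.66%. The 10 most abundant genes took 28.2% ± 0.821 of the counts in muscle and 8.19% ± 0.671 in vein (SD, n = 3 each). The 100 most abundant took 59.2% ± 0.476 and 25.3% ± 1.39 (SD, n = 3 each). In muscle 42, 41 and 44 genes sufficed to reach 50% of the counts in replicates 1, 2 and 3, whereas vein needed 660, 649 and 748. Vein also had more genes above a fixed share of the counts. In its replicates 1, 2 and 3, 13308, 13132 and 13498 genes reached a raw CPM (counts-per-million of the library total) of 1. In muscle 11263, 11368 and 11208 did. For each of these measures the 3 muscle libraries lay on one side of the 3 vein libraries, and a two-sided exact permutation test gave p = 0.1, the smallest value that 3 against 3 libraries allow. Library totals were similar in the groups (45226140 counts in all for muscle and 45419193 for vein). The most abundant genes leave fewer of these counts to the other genes in muscle, so depth for those was not equal. On the scaled CPM described below, 8699 genes had a mean of 10 or more in muscle and 9120 in vein.

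**Figure D1:**
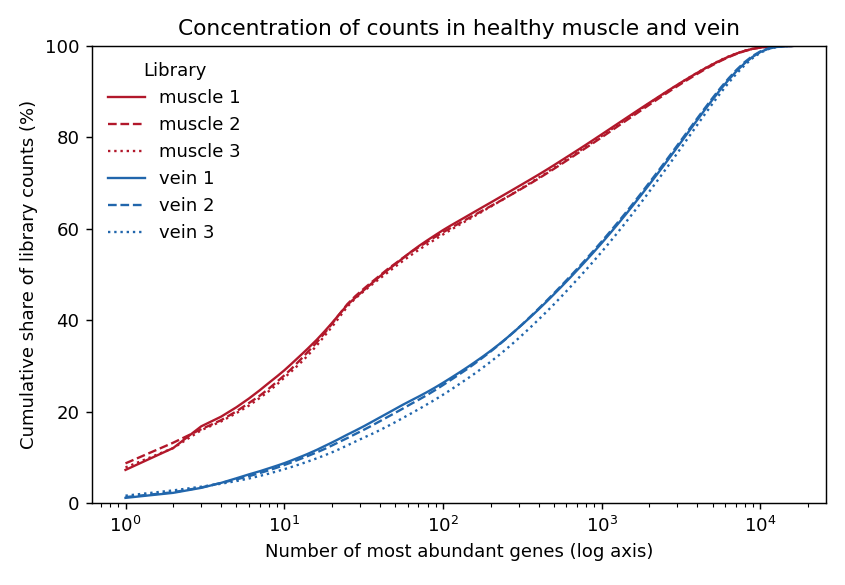
Cumulative share of library counts (vertical axis, percent) taken by the most abundant genes, ranked within each library (horizontal axis, number of genes, log axis), for 3 muscle and 3 vein libraries. The muscle curves reach 59.2% on average at 100 genes and the vein curves 25.3%, and the libraries of a tissue lie close together.

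This concentration sets the scale of every fold change that follows. Counts were scaled with TMM factors, which align most genes between libraries rather than the library totals. The factors were 0.414, 0.421 and 0.410 for muscle replicates 1, 2 and 3, and 1.15, 1.14 and 1.21 for vein. Scaled CPM, used from here on unless called raw, of a muscle library therefore sum to 2374380 to 2439400, and those of a vein library to 828513 to 878569. On library totals alone the median log2 fold change over the genes tested went from -0.16 to -1.64. Of the 10246 genes called on the TMM scale, 2202 then had the opposite sign. No gene called past 4-fold changed sign under any scaling tried. That was nearly set in advance, since those genes exceed a log2 fold change of 2. The largest median shift from a scaling was -1.49, on library totals alone. Membership did move: 1769 of the 2517 genes past 4-fold stayed past 4-fold on library totals alone. Much of the text below uses those genes, while the counts by fold use all genes called.

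Most genes differed between the tissues. At a Benjamini-Hochberg adjusted p under 0.05 in edgeR's quasi-likelihood test, 10246 of 15954 genes were called (64.2%), 4912 higher in muscle (30.8%) and 5334 higher in vein (33.4%). The 3 muscle libraries did not overlap the 3 vein libraries for 11184 of the genes tested (70.1%), and for 9941 of those called. Muscle was the higher tissue in 47.9% of the calls. That share became 58.1% with TMM factors from genes not enriched in muscle, 39.8% with upper quartile factors and 14.3% on library totals alone, so the balance of the directions depends on the scaling. The genes not enriched in muscle leave out 2842 genes called higher in muscle than in both vein and nerve in these data. For those the log2 fold change was over 1. No genes high in vein were left out, so the direction of that move was set by the choice. The middle 50% of log2 fold changes ran from -1.57 to 1.01.

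A stricter question was which genes differed by more than 4-fold beyond their error. That test (glmTreat against a log2 fold change of 2) called 2517 genes (15.8%), 1324 higher in muscle (8.3%) and 1193 higher in vein (7.48%). Of the 2517, 2512 had no overlap between the libraries of the tissues. DESeq2 with the same fold threshold called 1860 of the same 2517 genes, with 766 in all higher in vein. On library totals alone 576 genes were past 4-fold in muscle and 4491 in vein. With TMM factors from genes not enriched in muscle, 1629 were past 4-fold in muscle and 866 in vein, so that muscle held 65.3% of these calls, against 52.6% with TMM factors from all genes.

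The 1324 muscle genes stood at a median of 143 CPM in muscle and 6.31 CPM in vein. Their median log2 fold change was 3.98, or 3.94 when the 97 of them without a count in vein are set at their lower bound. The 1193 vein genes were less abundant, with a median of 29.5 CPM in vein and 2.23 CPM in muscle. Their median log2 fold change was -3.75, or -3.57 with the 111 of them without a count in muscle at their bound. Over all genes tested the median was -0.16. The bound used here is the level that 3 counts over the group would give, 0.16 CPM in muscle and 0.0567 CPM in vein, and it covers counting error only.

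**Figure D2:**
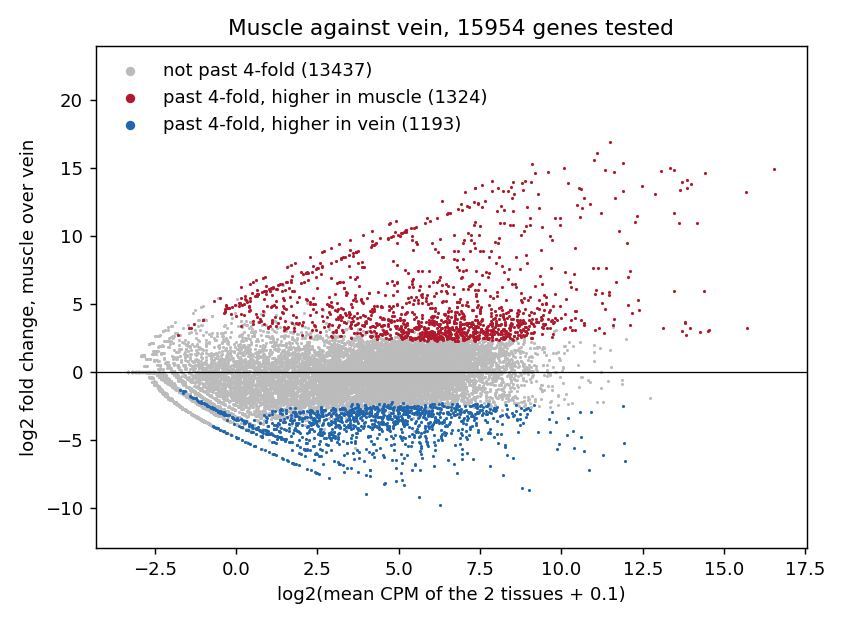
Log2 fold change of muscle over vein (vertical axis) against the log2 mean CPM of the tissues plus 0.1 (horizontal axis) for the genes tested, each point 1 gene, with genes past 4-fold in colour. Genes without a count in 1 tissue are drawn at their lower bound; the muscle genes reach further from 0 and to higher levels than the vein genes.

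The differences past 256-fold were mostly in favour of muscle. Among genes called at an adjusted p under 0.05, 671 were more than 16-fold higher in muscle and 485 in vein, counting genes absent from a tissue at their bound. Past 64-fold the numbers were 333 and 90. Past 256-fold they were 195 and 9, and past 1024-fold 120 and 0. At lower folds the order was the other way, with 3624 genes past 2-fold in muscle and 4279 in vein, but 4457 and 3474 with TMM factors from genes not enriched in muscle. Past 256-fold muscle had more genes than vein under each of the 5 scalings, with 140 against 48 on library totals alone. Past 16-fold and 64-fold the order was not stable. On library totals alone 388 genes were past 16-fold in muscle and 1768 in vein, and 221 and 292 were past 64-fold. With upper quartile factors 611 and 615 were past 16-fold. The bound in muscle lies higher than in vein, which limits how large a fold in favour of vein can be measured.

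**Figure D3:**
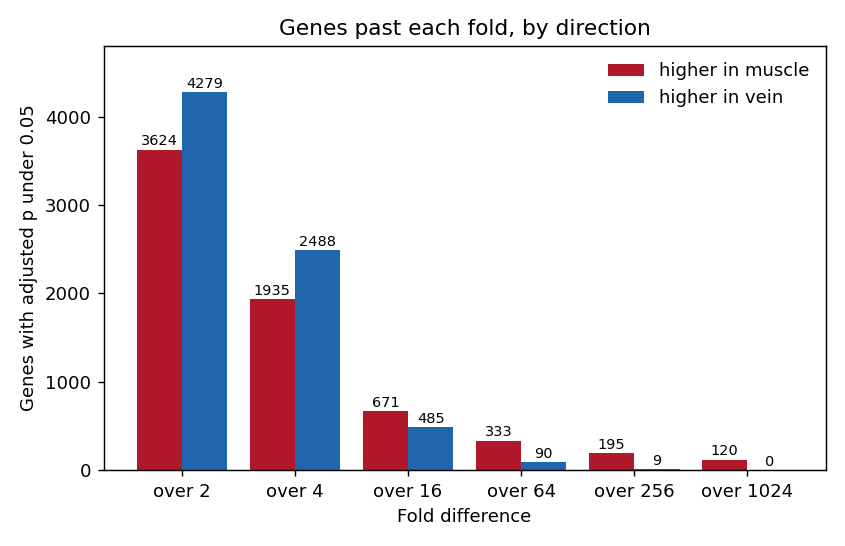
Number of genes with an adjusted p under 0.05 (vertical axis) whose difference exceeds each fold (horizontal axis), by direction, on the TMM scale with genes absent from a tissue at their lower bound. Vein leads at 2-fold (4279 against 3624, an order that turns with TMM factors from genes not enriched in muscle) and muscle at 1024-fold (120 against 0).

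The share of genes called rose with the level of expression. Among 3635 genes whose higher tissue stood between 1 and 10 CPM, 12.6% were past 4-fold, 158 in muscle and 300 in vein. Among 7145 genes between 10 and 100 CPM 13.5% were, 386 in muscle and 581 in vein. Among 2889 genes between 100 and 1000 CPM the share was 30.4%, with 614 in muscle and 264 in vein. Of the 247 genes at 1000 CPM or more in either tissue 73.3% were past 4-fold, 160 in muscle and 21 in vein. The 2038 genes that stayed under 1 CPM in both tissues gave 1.62%, and depth limits what can be called there. Because genes were placed by their higher tissue, a large difference itself moves a gene to a higher level. Counting error also falls as the level rises, so the rise is a description. From 1 to 10 CPM upward the median absolute log2 fold change was 1.42, 1.01, 1.67 and 3.9, which is no steady rise.

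The lists of the most abundant genes were largely separate. Of the 100 most abundant genes of muscle, ranked by their mean share of counts, 21 were also among the 100 most abundant of vein, which is the same share of each list. In the muscle list 86 genes were past 4-fold higher in muscle, 93 were called higher in muscle and 1 was called higher in vein, with a median log2 fold change of 5.98. In the vein list 29 were past 4-fold higher in vein, 64 were called higher in vein, 16 were called higher in muscle and 10 of these past 4-fold, with a median of -1.76. In counts the vein list was less separate: it took 25.1% ± 1.51 in vein and 18.1% ± 2.93 in muscle (SD, n = 3 each). The muscle list took 59% ± 0.416 in muscle and 9.73% ± 0.288 in vein (SD, n = 3 each). These lists were chosen by level in the tissues compared, so their direction is no independent evidence.

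ENSRNOG00000049695 had the largest difference in CPM in favour of muscle and was the most abundant gene of all 3 muscle libraries. It stood at 176300, 207200 and 191100 CPM in muscle replicates 1, 2 and 3, from 975158, 1268817 and 1356307 counts. In vein it stood at 11.88, 3.403 and 2.822 CPM, from 235, 49 and 53 counts. Every muscle library lay far above every vein library, and vein replicate 1 held more of it than the other vein libraries. The log2 fold change was 14.95 ± 2.06 (SE, edgeR adjusted p = 3.16e-06). SE values here are the log2 fold change divided by the square root of the test's F statistic. They are not direct estimates of the scatter between these libraries. In healthy nerve the same gene had 0 to 2 counts per library. In the repaired nerves it stood at 0.5933 to 3.261 CPM in EV and 14.88 to 196.2 CPM in MIV at day 3, and at 0.3116 to 11.25 CPM in EV and 106.3 to 12760 CPM in MIV at day 7, without overlap on either day.

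ENSRNOG00000016983 had the largest fitted log2 fold change. It stood at 10420, 243.3 and 2551 CPM in muscle replicates 1, 2 and 3, and had no count in any vein library. Muscle replicate 1 was the highest and replicate 2 the lowest, far apart from each other, and all 3 lay above vein. It was at least 72700-fold higher in muscle against 3 counts over the vein group (edgeR adjusted p = 6.69e-05). Replicate 1 gave 57641 of its 77235 muscle counts, and without that library the bound was 26200-fold. With fewer vein counts behind the floor it was 45500-fold without vein replicate 1 and 46900-fold without vein replicate 3. Healthy nerve held 30 to 83 counts of it per library, EV nerves held none, and every MIV library held 6 or more.

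ENSRNOG00000009372 had the largest fitted log2 fold change in favour of vein. It stood at 108.4, 117.9 and 71.04 CPM in vein replicates 1, 2 and 3, from 2143, 1697 and 1334 counts, and had no count in any muscle library. It was at least 611-fold higher in vein against 3 counts over the muscle group (edgeR adjusted p = 6.97e-05). The bound was 380-fold without muscle replicate 3, which leaves fewer muscle counts behind the floor. Healthy nerve held 0 to 5 counts per library, so of the 3 healthy tissues vein held nearly all of its counts. At day 3 the repaired nerves held 1.127 to 8.569 CPM in EV and 0 to 3.145 CPM in MIV, with overlap. At day 7 they held 6.455 to 17.14 CPM in EV and 0 to 4.949 CPM in MIV, without overlap.

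ENSRNOG00000018991 had the largest difference in CPM in favour of vein. It stood at 9443, 9384 and 13750 CPM in vein replicates 1, 2 and 3 and at 1764, 3883 and 2772 CPM in muscle. The tissues did not overlap, and the log2 fold change was -1.95 ± 0.303 (SE; edgeR adjusted p = 1.26e-05). It did not pass the 4-fold test (edgeR glmTreat adjusted p = 0.904). Healthy nerve, at 9070 CPM ± 1490 (SD, n = 5), lay near the vein level. In the repaired nerves it was lower than in either healthy vein or healthy nerve, at 268 CPM in EV and 283 CPM in MIV at day 3 and 1030 and 438 CPM at day 7 (means, n = 3 each).

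Some genes were present in 1 tissue with no count in the other. At 10 CPM or more in muscle, 54 genes had no count in the 45419193 counts of the vein group, and 15 of them stood at 100 CPM or more. Their counts over the muscle group ran from 200 to 77235 with a median of 1040, which makes each at least 188-fold higher in muscle. In the other direction 13 genes at 10 CPM or more in vein had no count in muscle, none of them at 100 CPM, with 561 to 5174 counts over the vein group and folds of at least 66.2. The cut of 10 CPM asks for fewer counts in muscle than in vein, since the muscle libraries carry smaller TMM factors. Without that cut the order was the other way. Counts in vein and none in muscle were found for 2638 gene rows, and counts in muscle and none in vein for 796. At the same CPM a gene draws fewer counts in muscle, since totals times TMM factors sum to 18750000 there and 52950000 in vein. How far this sets the order of the 2638 and 796 was not tested. Of the 54 muscle genes 26 had no count in healthy nerve either. Each of the 13 vein genes had a count in healthy nerve. At a looser limit, 251 genes stood at 10 CPM or more in muscle and under 1 CPM in vein, and 140 the other way round.

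The signal of each tissue's abundant genes in the other tissue was uneven from gene to gene, much more so for muscle genes in vein. The 86 abundant muscle genes past 4-fold took 57.01% of the counts in muscle and 5.712%, 6.412% and 5.219% in vein replicates 1, 2 and 3. Relative to its share in muscle, the middle gene of the 86 stood at 2.17%, 1.95% and 1.83% in these vein libraries. The quartiles lay far apart, at 0.0412% and 19.5% in replicate 1, and a gene without any vein count was among them. In the other direction, the 29 abundant vein genes past 4-fold took 8.316% of the counts in vein and 0.1591%, 0.2049% and 0.1818% in muscle replicates 1, 2 and 3. Relative to their shares in vein, their quartiles lay closer together, at 0.703% and 3.94% in muscle replicate 1. The 3 libraries of a tissue were alike in these shares. Whether RNA of 1 tissue was carried into the other was not tested.

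Genes with like levels in the tissues were counted as those whose 95% interval of the log2 fold change lay within 2-fold and that stood at 1 CPM or more in both. The interval used the SE taken from the F statistic, as above. There were 3094 of them (19.4% of those tested), of which 997 were also called different. Another 3611 genes were neither called nor held within 2-fold, so for these the data decide neither way. Genes between 10 and 100 CPM were within 2-fold most often (30.8%), and of the 247 genes at 1000 CPM or more 8 were. The number fell to 1773 on library totals alone.

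The libraries of each tissue differed little next to the difference between tissues. Across genes, log2 CPM correlated at 0.964 to 0.970 between muscle libraries and at 0.970 to 0.980 between vein libraries, and at 0.728 to 0.748 between the tissues (genes are not independent replicates). Among 7537 genes at 10 CPM or more in both tissues the median SD of log2 CPM was 0.188 in muscle and 0.127 in vein, while the median absolute log2 fold change between tissues was 0.899. Muscle was the more variable tissue for 5118 of these genes and vein for 2419. Vein replicate 2 had 174 genes more than 2-fold below the mean of the other vein libraries and 17 above it, while vein replicate 3 had 37 below and 184 above. In muscle, 24 of 4248 genes at 50 CPM or more spanned over 8-fold among the 3 libraries, and for 15 of these replicate 2 was the low one. In vein 12 of 3581 did, and for 9 of these replicate 2 was the low one. Without any 1 of the 6 libraries the number of calls past 4-fold stayed between 2231 and 2425.

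Healthy nerve was set beside both tissues to see where their genes stand in the tissue that a graft repairs. Of the 1324 muscle genes past 4-fold, 1199 (90.6%) lay nearer to vein than to muscle in nerve on the log2 scale, with a median of 9.44 CPM in nerve. Of the 1193 vein genes, 822 (68.9%) lay nearer to vein than to muscle in nerve, with a median of 15.8 CPM, and 294 stood above their level in vein. These positions use the libraries that chose the genes and are a description, with no test.

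The same groups were then followed in the repaired nerves, whose libraries had no part in choosing them by fold; they did enter the shared estimate of spread. The 1324 muscle genes took 71.3% ± 0.282 of the counts in muscle, 8.64% ± 0.604 in vein (SD, n = 3 each) and 9.74% ± 0.921 in healthy nerve (SD, n = 5). At day 3 they took 9.51% to 12.49% in MIV and 9.05% to 11.11% in EV, with overlap (difference 0.804 percentage points, two-sided exact permutation p = 0.5). Without MIV day 3 replicate 1 that difference was -0.154. At day 7 they took 10.32% to 27.79% in MIV and 8.867% to 9.713% in EV, without overlap (difference 8.95 percentage points, two-sided exact permutation p = 0.1). The MIV libraries at day 7 were far apart from each other, and the difference was 4.19 without replicate 3 and 12.9 without replicate 2. Over genes outside the 100 most abundant in muscle it was 3.59.

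The 1193 vein genes took 19.0% ± 1.23 of the counts in vein, 0.55% ± 0.0453 in muscle (SD, n = 3 each) and 9.83% ± 0.313 in healthy nerve (SD, n = 5). In the repaired nerves they took 7.37% to 8.221% in MIV and 7.967% to 8.835% in EV at day 3, with overlap (two-sided exact permutation p = 0.4). At day 7 they took 5.615% to 8.715% in MIV and 10.35% to 10.72% in EV, without overlap (two-sided exact permutation p = 0.1). Gene by gene at day 7, 575 of the 1324 muscle genes (43.4%) lay higher in every MIV library than in every EV library, against 9.72% of all genes tested. At day 3 it was 297 (22.4%) against 7.08%. Of the 1193 vein genes, 425 (35.6%) lay lower in every MIV library than in every EV library at day 7, against 11.3% of all genes tested, and at day 3 114 (9.56%) against 3.92%. Shares of one library sum to 100%, so a higher share of muscle genes leaves less for all the others together. At day 7 the difference between MIV and EV for the vein genes was -3.42 percentage points. Over genes outside the 100 most abundant in muscle it was -3.37. How far the lower share of the vein genes follows from the higher share of the muscle genes was not tested.

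**Figure D4:**
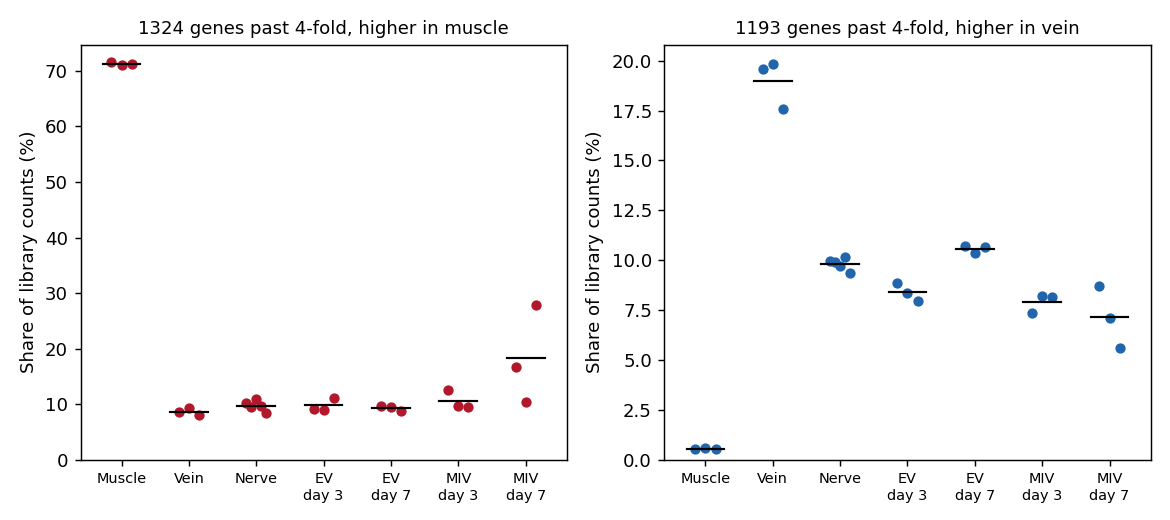
Share of library counts (vertical axis, percent) taken by the genes past 4-fold in muscle (left) and in vein (right) in each of the 23 libraries (points), by group, with the group mean as a line. MIV at day 7 spreads from 10.32% to 27.79% for the muscle genes, and lies below EV at day 7 for the vein genes.

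The 54 genes present in muscle and without a count in vein separated MIV from EV on both days. Their summed level was 8156, 3045 and 4217 raw CPM in muscle replicates 1, 2 and 3. In EV it was 3.199, 19.59 and 0.8111 at day 3 and 7.799, 7.368 and 10.41 at day 7, while healthy nerve ranged from 6.647 to 13.29. In MIV it was 827, 194.2 and 191.2 at day 3 and 856.4, 64.11 and 2317 at day 7. Every MIV library lay above every EV library of its day, at 51.4 times the EV mean at day 3 and 127 times at day 7 (two-sided exact permutation p = 0.1 for each day). Of the 54 genes 27 at day 3 and 26 at day 7 lay higher in every MIV library than in every EV library, which is 50% and 48.1% of them, against 7.08% and 9.72% of all genes tested. Leaving out ENSRNOG00000016983, which had the most counts of the 54 in muscle, left 392 raw CPM in MIV and 7.87 in EV at day 3 and 1070 and 8.53 at day 7. In percentage points of all counts, the difference between MIV and EV was 0.0396 at day 3 and 0.0185 without MIV day 3 replicate 1. At day 7 it was 0.107, and 0.0452 without MIV replicate 3. A difference between MIV and EV in muscle genes was already known from earlier results of these data, so it is no independent support.

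MIV day 7 replicate 3 held counts of 53 of the 54 genes and replicate 2 of 33. The 26 genes without a count in both vein and nerve gave 82.7 ± 48.9 raw CPM in MIV and 3.36 ± 4.53 in EV at day 3, and 276 ± 325 against 0.506 ± 0.0453 at day 7 (SD, n = 3 each). The 13 genes present in vein and without a count in muscle summed to 432.9, 416.6 and 447.2 raw CPM in vein replicates 1, 2 and 3. They were found in every repaired library, from 3.764 to 20.79 raw CPM in MIV and 14.33 to 30.81 in EV at day 3, and from 13.65 to 93.39 in MIV and 79.51 to 121.8 in EV at day 7, with overlap on both days (two-sided exact permutation p = 0.3 and 0.2). Their level was lower than in vein in all 12 repaired libraries.

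**Figure D5:**
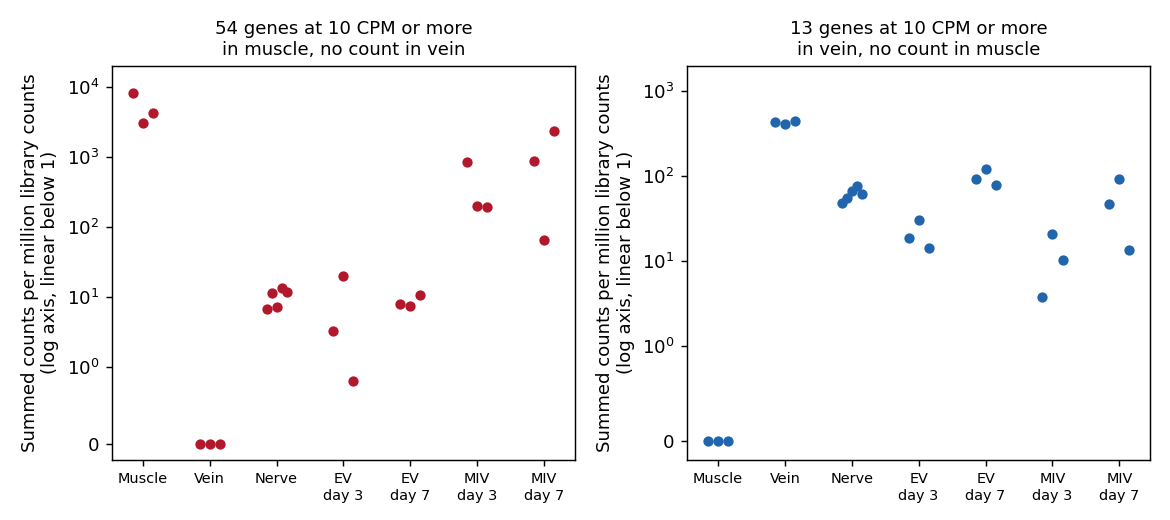
Summed raw CPM (vertical axis, log axis that is linear below 1) of the 54 genes at 10 CPM or more in muscle without a count in vein (left) and of the 13 genes the other way round (right), for each library (points) by group. On the left the MIV points (64.11 to 2317) lie above the EV points (0.8111 to 19.59); on the right MIV and EV overlap.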

How the data were processed

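Per the labels' protocols, TRIzol RNA was taken through poly-T bead selection into a library type that does not keep strand, for Illumina sequencing. CASAVA and HISAT2 were used, per the submitters' processing notes; which counter, build and annotation were used is not stated there. The authors deposited raw, unnormalized counts in 1 table of genes by libraries. All 23 columns matched a library title, and 0 were left over. A read that falls where genes on opposite strands overlap could come from either gene.

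Counts of all 23 libraries were fitted in R 4.3.3 with edgeR 4.0.16 (filterByExpr at min.count 10 and min.total.count 15; TMM; glmQLFit with robust set, 1 coefficient per group, glmQLFTest, and glmTreat at a log2 fold change of 2), with Benjamini-Hochberg adjustment and a threshold of 0.05. The biological coefficient of variation was 31.4% in this fit, and 26.0% and 23.8% within muscle and vein alone. CPM values use library totals times TMM factors; shares use library totals. Log2 CPM for correlations used a prior count of 2. No pair of libraries of a tissue agreed within counting noise (chi-square per degree of freedom of 28.56 or more).

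The members and lists were chosen with earlier results of these data known. The 32 gene lists, 21 marker lists and 43 gene pairs written by symbol could not be measured (0 lists), since 0 of 47357 reference rows (GRCr8) hold an Ensembl identifier. The rule for named genes asked for an adjusted p under 0.05, 50 CPM in the higher tissue, no overlap and a symbol, in order of fold change or of difference in CPM. Without its symbol clause it gave the first identifier of each order and direction. Counts were also simulated with muscle and vein at the same level, except for 50 genes at each true fold (15648 genes). Recovery was 48% at a true fold of 2, 92% at 4 and 96% at 8, and 3 of 15448 unchanged genes were called. The 4-fold test called 0 of 50 at a true fold of 4 and 36 of 50 at 8. In these counts few genes differed and the tissues were equally concentrated. The rates therefore need not hold in the data, and the scaling was not tested. Alternatives were other scalings, filters and sample sets, DESeq2 1.42.0, each library left out and a replicate block.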

Additional observations from a re-analysis of the deposited data

How the results depend on the processing

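The number of calls stayed within 1.5 times its main value of 10246 under every alternative, and that past 4-fold (2517) under every alternative other than library totals alone, which gave 5067. On library totals alone 1801 genes were called higher in muscle and 10810 in vein, 576 and 4491 past 4-fold, and 1773 lay within 2-fold; DESeq2 called 766 genes past 4-fold in vein. The median shift of all genes was 0.32 with TMM factors from genes not enriched in muscle, -0.263 with upper quartile factors and -1.49 on library totals alone. Leaving out 1 muscle or vein library gave 9590 to 9896 calls (4551 to 4716 higher in muscle, 4939 to 5183 in vein), 2231 to 2425 past 4-fold (1205 to 1267 and 1022 to 1179) and 2795 to 2897 genes within 2-fold.

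The 6 libraries alone tested 13771 genes. The replicate number pairs nothing that the labels state: same-numbered muscle and vein libraries deviated together with correlations of 0.056, -0.036 and -0.029, and not every library correlated best with its own number. With the replicate block the 6 libraries gave 9450 calls, 2511 past 4-fold, against 9882 and 2620 without it.

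Over genes outside the 100 most abundant in muscle, the differences in share between muscle and vein became 31.6 percentage points for the muscle genes past 4-fold, -19.7 for the vein genes, 0.8105 for the 54 and -0.04788 for the 13. Concentration without mitochondrially encoded genes and the medians of the symbol lists were not run, because no identifier was paired with a symbol. Depth limits genes near 3 counts over a group and those under 1 CPM.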
